A study of Mus musculus with 48 samples.

Results

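The B cell genes Cd79a, Cd79b, Ms4a1, Cd22, Pax5, Cr2 and Fcer2a were followed through aging mammary glands of mice with an inducible Esr1 or CYP19A1 transgene. The 7 genes were taken by symbol from a table of 55487 genes, in which each symbol occurs once, and their levels are given in every library. RNA was measured in 48 libraries of the thoracic mammary gland, in 16 groups of 3. All mice carried MMTV-rtTA, a doxycycline-dependent activator driven by a mammary tumour virus promoter that is active mainly in mammary epithelium. The responder under the tet operator was Esr1, the gene of estrogen receptor alpha, in the first model, and CYP19A1, the gene of aromatase, the enzyme that makes estrogens, in the other. Each model was sampled at 12 and 18 months of age after 1 week of induction and without induction. At 24 months it was sampled without induction, after 6 months and after 12 months of induction, and at 30 months after 18 months of induction. None of the groups used here is uninduced at 30 months or was given doxycycline without a responder, so the drug and the transgene cannot be told apart.

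B cells recognise antigen through the B cell receptor, a membrane antibody held together with a signalling pair encoded by Cd79a and Cd79b. Coreceptors on the cell surface raise or damp the signal of the receptor, and the transcription factor Pax5 keeps the B cell programme on. When a B cell becomes an antibody-secreting plasma cell, Pax5 and most surface markers are switched off while antibody transcripts become very abundant. In the mammary gland, plasma cells supply antibody to milk, and lymph nodes lying in or beside the fat pad hold dense follicles of B cells, which a dissected gland can include.

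Promoter sequences (250 bases before the start and 50 from it on, RefSeq, build GRCm38.p6) were at hand for 5 of the 7 genes. Those of Cd79a and Cd22 are shown because both genes lie on chromosome 7, followed each other closely across libraries, and hold different matches to motifs of B cell transcription factors. The search covered both strands and 4 motifs, the octamer ATTTGCAT, the early B cell factor motif TCCCNNGGGA, the PU.1 motif GAGGAAG and the E-box CAGGTG that E2A proteins bind. Capitals mark the matches.
Cd79a, chr7:24897247-24897546, plus strand: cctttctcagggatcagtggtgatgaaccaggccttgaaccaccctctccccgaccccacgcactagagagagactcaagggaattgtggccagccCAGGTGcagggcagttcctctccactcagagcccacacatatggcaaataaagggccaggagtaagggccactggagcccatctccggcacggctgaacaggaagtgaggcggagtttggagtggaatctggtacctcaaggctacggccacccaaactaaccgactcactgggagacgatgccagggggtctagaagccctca
Cd22, chr7:30878979-30879278, minus strand: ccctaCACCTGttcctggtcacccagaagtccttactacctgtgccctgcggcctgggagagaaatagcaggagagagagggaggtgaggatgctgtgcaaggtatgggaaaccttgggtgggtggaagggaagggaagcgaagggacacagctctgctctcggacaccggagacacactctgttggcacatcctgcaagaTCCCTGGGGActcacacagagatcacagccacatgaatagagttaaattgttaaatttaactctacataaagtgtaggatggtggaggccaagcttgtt
The Cd79a promoter held an E-box whose first base lies at position -154 from the start. The Cd22 promoter held an early B cell factor match at -49 and an E-box at -245, which reads CACCTG on the printed strand. Cr2 had an E-box at -88, Pax5 had none of the 4 motifs in its window, and of the 3 promoter entries of Fcer2a 1 held E-boxes. Among 32851 promoter entries of the same length, the E-box occurred in 20.2%, the PU.1 motif in 13.6%, the octamer in 1.74% and the early B cell factor motif in 0.904%. A match describes letters in the window and was not tested as a binding site.

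Values are TPM, in which transcripts are scaled by transcript length and to a fixed total per library, so levels can be set side by side between genes of a library. Between libraries they also depend on what fills that total, of which protein-coding genes took between 9.37% and 36.8%. Here and below, protein-coding leaves out mitochondrially encoded genes and Lars2, which is counted with the ribosomal RNA rows. B cell transcripts were scarce in every gland. Summed over the 7 genes, their level ran between 1.16 and 56.7 TPM with a median of 6.80 TPM. The receptor chain gene Cd79b had the highest median of the 7 genes. It had a median of 2.02 TPM (0.15 to 17.5) and reached 1 TPM in 40 of the 48 libraries. Cd79a had a median of 1.16 TPM (0.18 to 10.7) and reached 1 TPM in 31 libraries. The ratio of the Cd79b to the Cd79a level had a median of 1.56, and it was above 1 in 46 of 48 libraries. Both genes encode partners of 1 receptor complex, Cd79b at mm10 chr11:106311341-106314762 on the minus strand and Cd79a at chr7:24897381-24902197 on the plus strand.

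Among the surface proteins, Cd22, an inhibitory sialic acid-binding coreceptor (chr7:30865402-30880342, minus strand), had a median of 1.495 TPM and ran between 0.15 and 13.5 TPM. Ms4a1, which encodes the CD20 antigen (chr19:11249675-11266241, minus strand), had a median of 0.925 TPM and ran between 0.06 and 9.83 TPM. Pax5 (chr4:44524757-44710487, minus strand) had a median of 0.395 TPM (0.01 to 4.21) and reached 1 TPM in 10 libraries. Cr2, the complement receptor of mature B cells that follicular dendritic cells of lymphoid follicles also make (chr1:195136811-195176716, minus strand), had a median of 0.505 TPM. It moved over a narrow range, 0.21 to 1.69 TPM. Fcer2a, the low-affinity IgE receptor of mature B cells (chr8:3681737-3694175, minus strand), had a median of 0.325 TPM (0.02 to 1.49) and reached 1 TPM in 2 libraries.

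**Figure D1:**
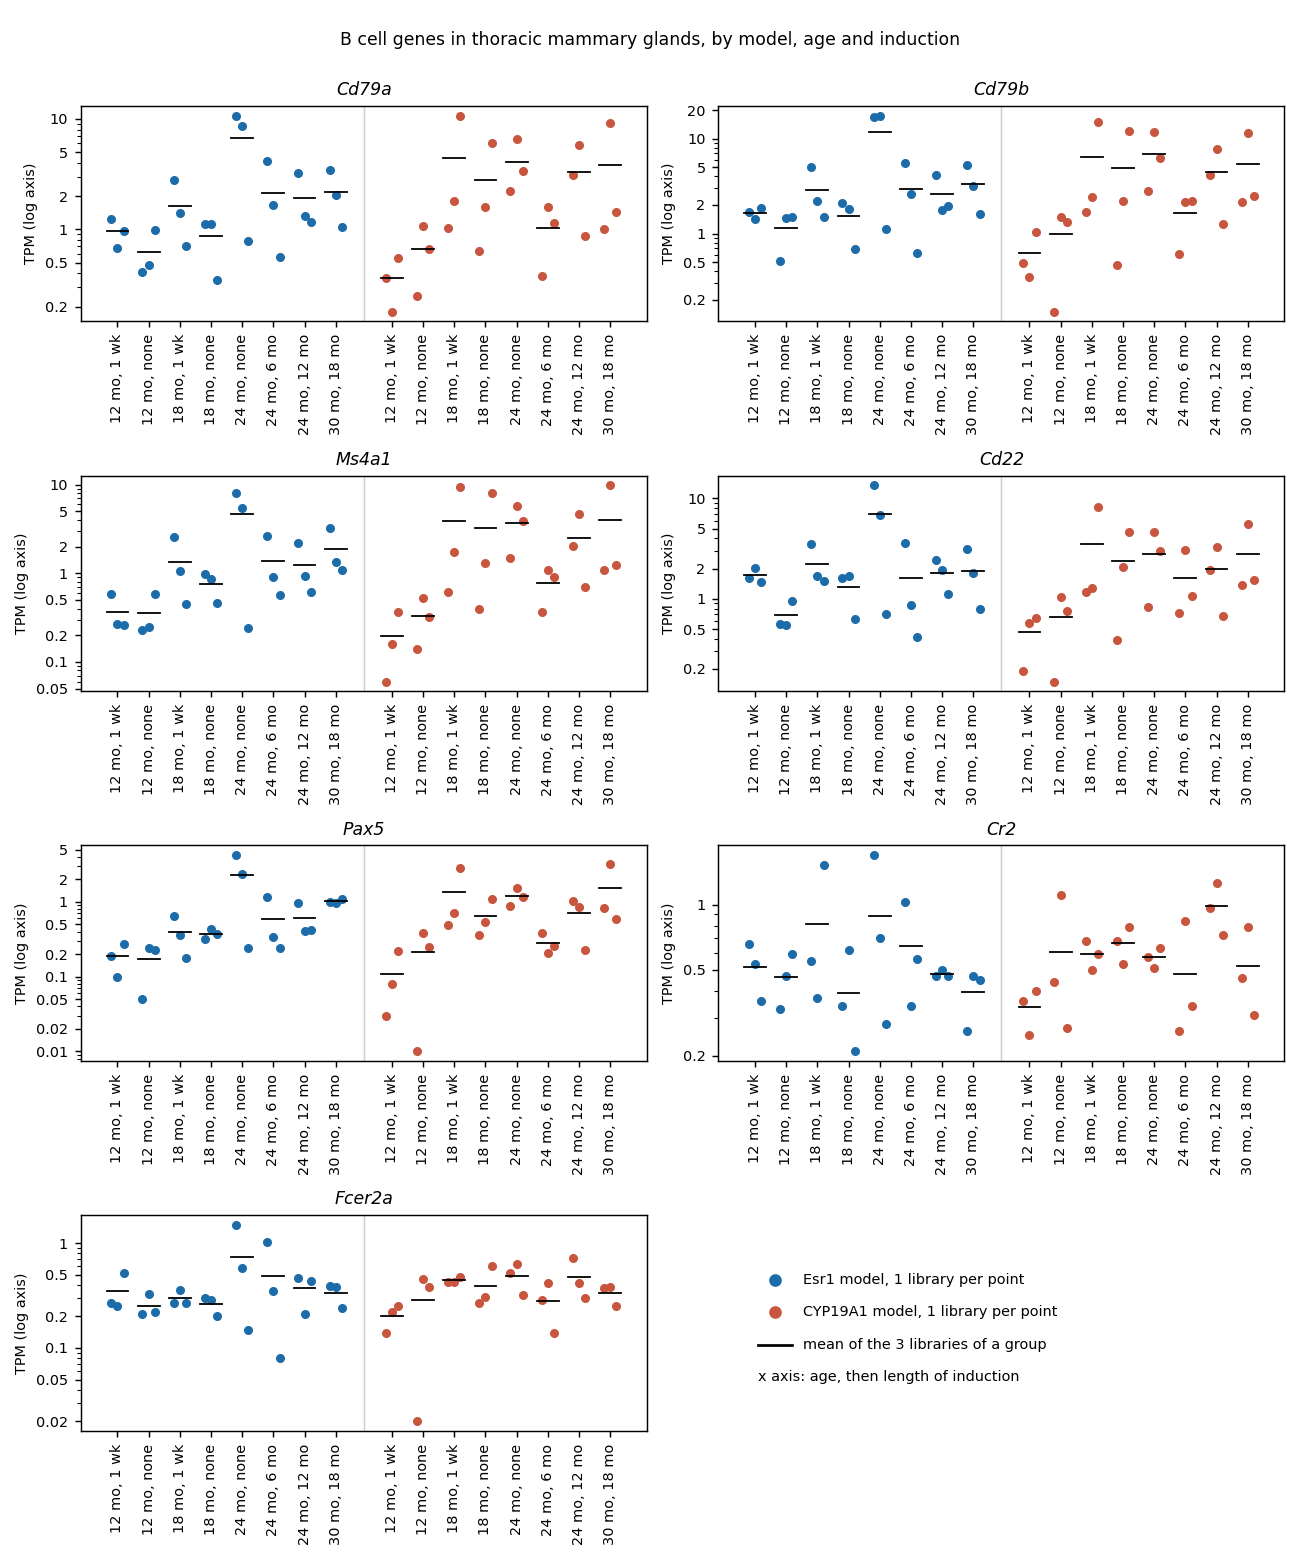
TPM of each of the 7 B cell genes (log axis) in every library, by model, age and length of induction; points are single libraries and bars the mean of the 3 libraries of a group. The uninduced 24-month Esr1 group has the highest mean of Cd79a, 6.69 TPM, from 2 libraries at 10.7 and 8.57 TPM and another at 0.78 TPM.

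Libraries of a group differed widely. The highest sum of the 7 genes, 56.7 TPM, was in replicate 1 of the uninduced 24-month Esr1 glands, and replicate 2 of that group had 42.1 TPM, while replicate 3 had 3.51 TPM. In 18-month CYP19A1 glands induced for 1 week, replicate 3 had 46.9 TPM, and the other replicates had 6.09 and 8.89 TPM. In uninduced 18-month CYP19A1 glands, replicate 3 had 33.3 TPM, against 3.21 and 8.52 TPM in the other replicates. In 30-month CYP19A1 glands after 18 months of induction, replicate 2 had 40.4 TPM, against 7.24 and 7.87 TPM. In uninduced 24-month CYP19A1 glands, the replicates had 9.30, 31.4 and 18.5 TPM. These 6 libraries above 30 TPM lay in 5 groups, and in each of these groups at least 1 other library lay below 10 TPM.

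At the low end, the 3 CYP19A1 glands of 12 months induced for 1 week had 1.63, 1.81 and 3.48 TPM, and the 3 uninduced ones had 1.16, 6.10 and 3.98 TPM. The 12-month Esr1 glands induced for 1 week had 6.23, 5.29 and 5.70 TPM, and the uninduced ones had 2.30, 3.79 and 5.04 TPM. All 12 libraries of 12-month glands thus lay below the overall median of 6.80 TPM. Ribosomal RNA was read from 3 rows, CT010467.1, AY036118 and Lars2, of which Lars2 is not itself a ribosomal RNA gene. Mitochondrial ribosomal RNA genes are not among them. Together these rows took between 0.0159% and 67.2% of TPM in a library. The highest share was in CYP19A1 replicate 1 of the uninduced 12-month glands, which also had the lowest B cell sum. When TPM were rescaled so that the protein-coding genes alone made up the fixed total, the same 6 libraries were the highest, with sums between 97.7 and 235 on that scale, and that library moved to place 42 of 48 by level.

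**Figure D2:**
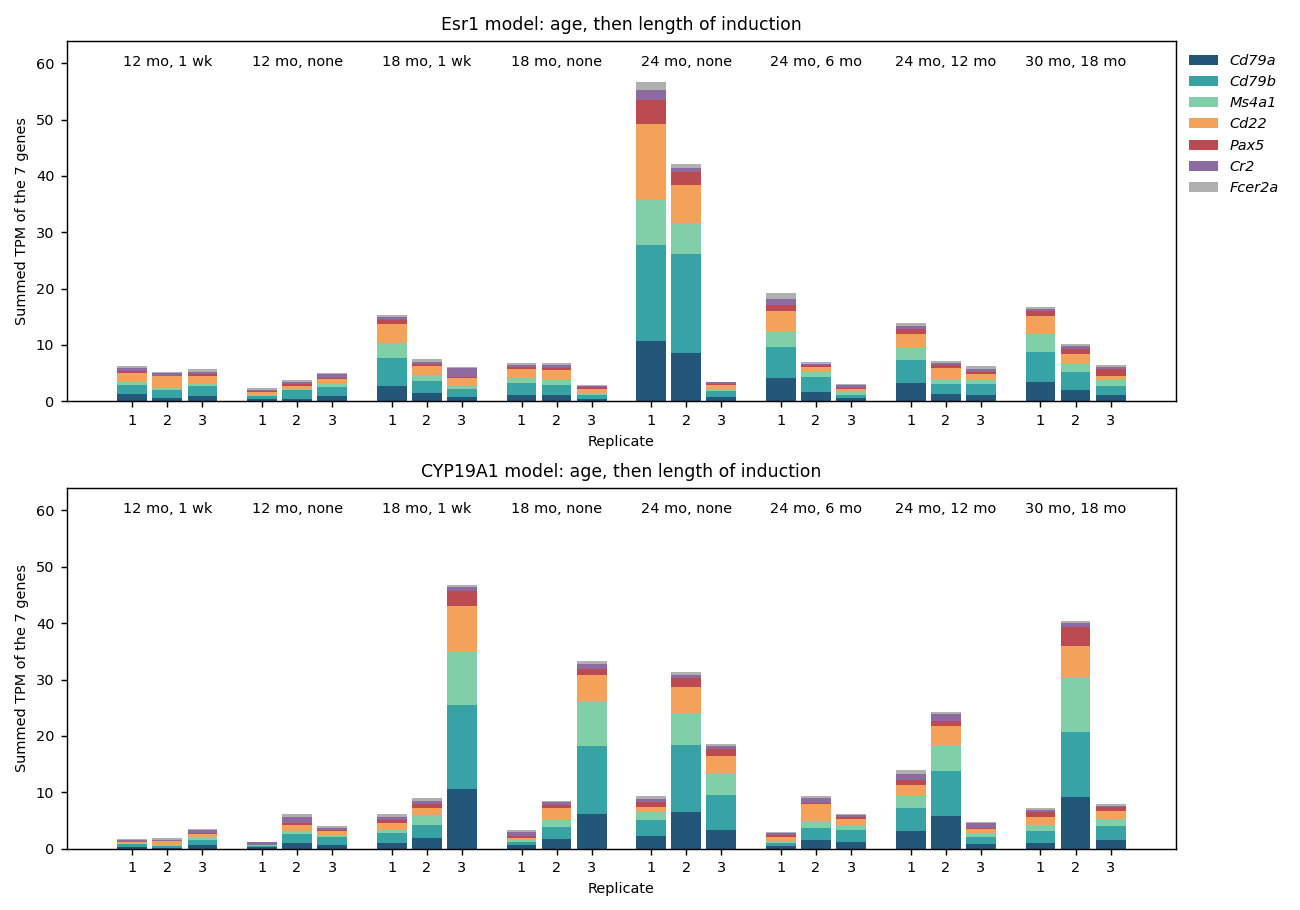
Summed TPM of the 7 B cell genes in each of the 48 libraries, stacked by gene (upper panel, Esr1 model; lower panel, CYP19A1 model), by age and length of induction. The tallest bar is replicate 1 of the uninduced 24-month Esr1 glands at 56.7 TPM, and replicate 3 of the same group stands at 3.51 TPM.

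Ordered by the group mean of Cd79a, the uninduced 24-month Esr1 glands came first at 6.69 ± 5.23 TPM (SD, n = 3), followed by 18-month CYP19A1 glands after 1 week at 4.45 ± 5.28 TPM and uninduced 24-month CYP19A1 glands at 4.04 ± 2.26 TPM. The 30-month CYP19A1 glands stood at 3.86 ± 4.58 TPM, the 24-month CYP19A1 glands after 12 months of induction at 3.28 ± 2.49 TPM and the uninduced 18-month CYP19A1 glands at 2.77 ± 2.90 TPM. Then came the 30-month Esr1 glands at 2.18 ± 1.20 TPM, the 24-month Esr1 glands after 6 months at 2.12 ± 1.84 TPM and after 12 months at 1.91 ± 1.15 TPM, and the 18-month Esr1 glands after 1 week at 1.63 ± 1.06 TPM. The last 6 groups were 24-month CYP19A1 glands after 6 months (1.03 ± 0.607 TPM), 12-month Esr1 glands after 1 week (0.967 ± 0.285 TPM), uninduced 18-month Esr1 glands (0.863 ± 0.445 TPM), uninduced 12-month CYP19A1 glands (0.663 ± 0.410 TPM), uninduced 12-month Esr1 glands (0.623 ± 0.311 TPM) and 12-month CYP19A1 glands after 1 week (0.363 ± 0.185 TPM). Of the 15 pairs of neighbours in this order, all 15 overlapped in range and all 15 differed by less than their spread. For each of the other 6 genes, too, all 15 neighbouring groups overlapped.

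The 5 genes Cd79a, Cd79b, Ms4a1, Cd22 and Pax5 moved together. Across the 48 libraries, on log2(TPM + 1), Cd79a and Cd79b had Pearson's r = 0.98 and Spearman's rho = 0.97, each with a permutation p of 1e-05, the smallest that 100000 permutations can give (adjusted p = 1.5e-05 for r and 1.4e-05 for rho over 21 pairs). The r was 0.98 without the 2 libraries farthest from the median, and 0.97 on deviations from the group means, so the relation also held within groups. The lowest r among the 5 genes was that of Cd22 and Pax5, at 0.84 (rho = 0.71, permutation p = 1e-05 for both), with 0.76 without the 2 farthest libraries and 0.85 within groups. Fcer2a followed Cd79a at r = 0.70 and rho = 0.71 (permutation p = 1e-05 for both), with 0.66 without the 2 farthest libraries and 0.60 within groups. Cr2 was the loosest, at r = 0.49 and rho = 0.49 with Cd79a (permutation p = 0.00064 and 0.00046, adjusted p = 0.000747 and 0.000604), with 0.41 without the 2 farthest libraries and 0.43 within groups. With Pax5, Cr2 had r = 0.42 and rho = 0.34 (permutation p = 0.0037 and 0.01921, the same after adjustment). The r of this pair was 0.23 without the 2 farthest libraries, so that over all libraries it rests in part on them, and 0.48 within groups. Libraries share their scaling to a fixed total, and each r is over all libraries of both models.

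Genes with a pattern most like the 7 were sought by Pearson's r, over the 48 libraries, with the mean z-score of the 7 genes, among 20203 other genes. Among the 10 nearest were Bank1 (r = 0.95), Fcrl1 (0.94), H2-Ob (0.93), Fcmr (0.92), Cxcr5 (0.92), Blk (0.91), Btla (0.91), Napsa (0.91) and Chst3 (0.91). Btla, Napsa and Chst3 were not on a list of 18 other B lineage genes, which held the rest. Bank1 is a B cell scaffold protein, Cxcr5 the receptor that draws B cells into follicles, and Blk a B cell kinase of the Src family. H2-Ob is a chain of an antigen presentation regulator of B cells.

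Other cell types that a gland can hold were read beside Cd79a. With the mean of the 18 other B lineage genes, Cd79a had r = 0.97 and rho = 0.95 (permutation p = 1e-05 for both, adjusted p = 6.5e-05, 0.96 without the 2 farthest libraries, 0.97 within groups). With 20 genes of B cell receptor signalling, many of which other leukocytes also make, r was 0.65 and rho 0.62 (permutation p = 1e-05 for both, adjusted p = 6.5e-05, 0.62 without the 2 farthest, 0.74 within groups). With 19 T cell genes, r was 0.42 and rho 0.45 (permutation p = 0.00296 and 0.00171, adjusted p = 0.007696 and 0.004921 over 13 relations, 0.45 without the 2 farthest, 0.64 within groups). With 8 antibody constant region genes, r was 0.37 and rho 0.43 (permutation p = 0.01001 and 0.00262, adjusted p = 0.016266 and 0.004921, 0.31 without the 2 farthest, 0.32 within groups). With 8 plasma cell genes, r was 0.41 and rho 0.42 (permutation p = 0.00382 and 0.00351, adjusted p = 0.008277 and 0.005704, 0.33 without the 2 farthest, 0.44 within groups). With 7 genes of lymph node stroma, r was 0.17 and rho 0.27 (permutation p = 0.248 and 0.0691, adjusted p = 0.269 and 0.0817, 0.17 without the 2 farthest, 0.23 within groups). With 6 germinal centre genes, r was 0.48 and rho 0.53 (permutation p = 0.00066 and 0.00012, adjusted p = 0.00286 and 0.00052, 0.47 without the 2 farthest, 0.52 within groups). With 6 macrophage genes, r was 0.46 and rho 0.43 (permutation p = 0.00112 and 0.00246, adjusted p = 0.00364 and 0.004921, 0.39 without the 2 farthest, 0.62 within groups). With 5 genes of mammary epithelium, r was 0.02 and rho 0.10 (permutation p = 0.886 and 0.497, adjusted p the same, -0.09 without the 2 farthest, 0.11 within groups). With 5 adipocyte genes, r was 0.30 and rho 0.31 (permutation p = 0.04058 and 0.02981, adjusted p = 0.0486 and 0.0431, 0.34 without the 2 farthest, 0.31 within groups). With the share of ribosomal RNA, r was -0.34 and rho -0.29 (permutation p = 0.01743 and 0.0510, adjusted p = 0.0252 and 0.0664, -0.30 without the 2 farthest, -0.31 within groups). With the share of protein-coding transcripts, r was 0.29 and rho 0.24 (permutation p = 0.04116 and 0.106, adjusted p = 0.0486 and 0.115, 0.17 without the 2 farthest, 0.33 within groups). With TPM rescaled to the protein-coding total, r with Cd79a was 0.97 for other B lineage genes and 0.69 for receptor signalling genes. It was 0.38 for macrophage, 0.35 for T cell, 0.34 for skeletal muscle, 0.30 for germinal centre and 0.29 for plasma cell genes. For antibody constant regions it was 0.27, for adipocyte genes 0.15, for lymph node stroma 0.06 and for epithelium -0.22. The shares of ribosomal RNA and of protein-coding transcripts had -0.22 and 0.12. The r of Cd79a with Cr2 and Fcer2a within groups, 0.43 and 0.60, was below its r of 0.64 with T cell genes.

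**Figure D3:**
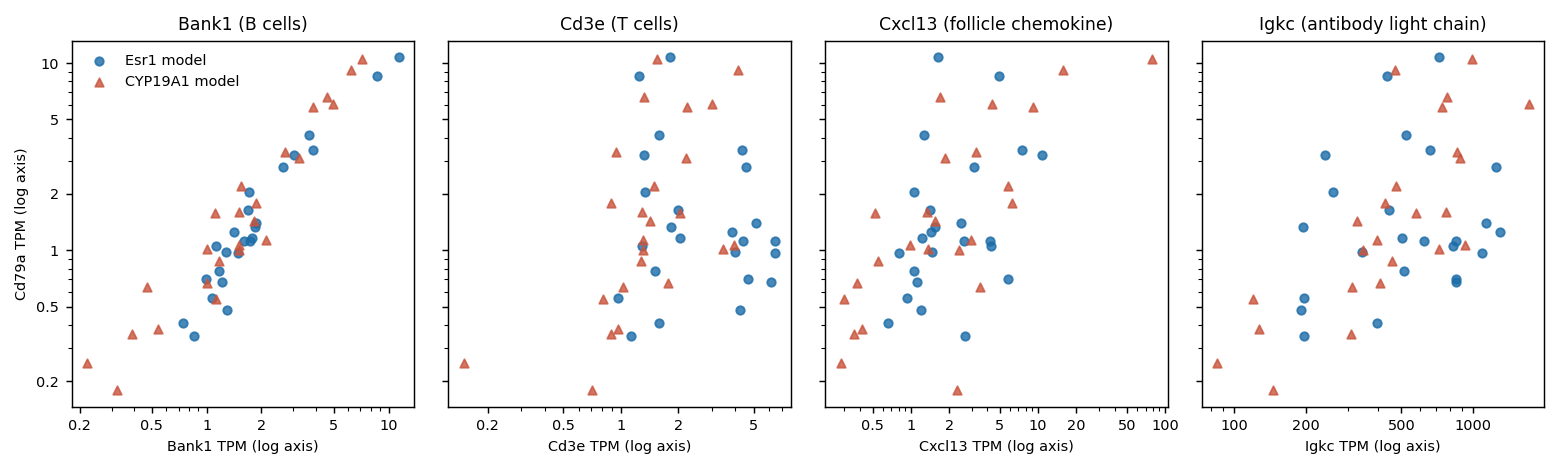
Cd79a TPM (vertical log axis) in the 48 libraries against the B cell scaffold gene Bank1, the T cell receptor subunit Cd3e, the follicle chemokine Cxcl13 and the antibody light chain Igkc, each in TPM on a log axis; circles are the Esr1 model and triangles the CYP19A1 model. Points lie along a narrow band for Bank1 and scatter widely for Cd3e and Igkc, and the library at 78.8 TPM of Cxcl13 is replicate 3 of the 18-month CYP19A1 glands after 1 week.

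Markers of lymph node were read in the 6 libraries whose B cell sum was above 30 TPM. Cd3e, a T cell receptor subunit, had a median of 1.59 TPM over the 48 libraries and a highest value of 6.48 TPM. It stood at 1.81 and 1.25 TPM in replicates 1 and 2 of the uninduced 24-month Esr1 glands, at 1.54 TPM in replicate 3 of the 18-month CYP19A1 glands after 1 week, and at 1.32 TPM in CYP19A1 replicate 2 of the uninduced 24-month glands. It was higher in replicate 2 of the 30-month CYP19A1 glands (4.12 TPM) and CYP19A1 replicate 3 of the uninduced 18-month glands (3.00 TPM). The summed 19 T cell genes ran between 34.9 and 80.7 TPM in these 6 libraries, all of them above the median of 32.2 TPM over all 48 libraries, which ran between 6.43 and 89.0 TPM. Fut7, a fucosyltransferase of high endothelial venules, had its highest value of 0.34 TPM in replicate 2 of the uninduced 24-month Esr1 glands, and it was 0.17 to 0.28 TPM in the other 5 libraries, all above its median of 0.12 TPM. Chst4, a sulfotransferase of the same vessels, was at or below 0.10 TPM in every library with a median of 0.005 TPM. It stood at 0.03 to 0.07 TPM in 5 of the 6 libraries and at 0 in CYP19A1 replicate 2 of the uninduced 24-month glands. Other genes of the stroma list went different ways in these 6 libraries. Ccl19 ran between 3.44 and 11.6 TPM, all above its median of 2.595 TPM. Ccl21a ran between 1.50 and 7.11 TPM and Madcam1 between 0.07 and 2.16 TPM, on both sides of their medians of 2.645 and 1.15 TPM. Glycam1 ran between 0.86 and 7.47 TPM, all below its median of 29.9 TPM.

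Cxcl13, the chemokine of B cell follicles, separated the high libraries from each other. It stood at 78.8 TPM in replicate 3 of the 18-month CYP19A1 glands after 1 week and at 15.8 TPM in replicate 2 of the 30-month CYP19A1 glands, against a median of 1.59 TPM over all libraries. It was 1.62 TPM in replicate 1 and 4.95 TPM in replicate 2 of the uninduced 24-month Esr1 glands, both among the 3 highest B cell sums. It was 1.69 TPM in CYP19A1 replicate 2 of the uninduced 24-month glands and 4.38 TPM in replicate 3 of the uninduced 18-month ones. The 5 genes of B cell precursors, among them Rag1 and Rag2, the antibody gene recombinases, summed to at most 0.71 TPM, and none of them could be tested. The summed stroma list is led by Glycam1, which milk-secreting epithelium also makes and which reached 8204 TPM in replicate 3 of the uninduced 24-month Esr1 glands, the replicate with the lowest B cell sum of its group. The part of lymph node tissue in the B cell levels was not tested.

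Comparisons between groups used log2(TPM + 1) and limma's moderated test fitted over 20209 genes that reached 1 TPM in at least 3 libraries. The threshold for a gene to pass was 0.05 after Benjamini-Hochberg adjustment over these genes. Fcer2a did not meet that filter, so 6 of the 7 genes were tested, and it is given from a fit of 48339 genes without the filter. In that fit Fcer2a passed in none of the 18 comparisons, with changes between -0.27 and 0.40. Pax5 and Cr2 met the filter through 10 and 5 libraries. In a bulk gland, fewer B cells and less RNA per B cell cannot be told apart. Libraries of a group are labelled as biological replicates, without a statement that they come from different mice, and p-values cover no more than the scatter among them.

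The first question was whether B cell transcripts differ between old and younger adult glands without induction. In each model, most B cell genes had higher levels at 24 than at 12 months, and none passed the threshold within a model. In uninduced Esr1 glands, Cd79a had 10.7, 8.57 and 0.78 TPM at 24 months, against 0.41, 0.48 and 0.98 TPM at 12 months. Cd79b had 17.0, 17.5 and 1.12 TPM at 24 months, against 0.51, 1.47 and 1.48 TPM at 12 months. For both chains 2 of the 24-month libraries were above all 12-month ones, and the other lay inside the 12-month range. Pax5 had 4.21, 2.36 and 0.24 TPM at 24 months, against 0.05, 0.24 and 0.23 TPM at 12 months, again with replicate 3 touching the younger group.

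On the log2(TPM + 1) scale, the change of the Esr1 glands at 24 against 12 months was 1.86 for Cd79a (SE 0.62, limma adjusted p = 0.238), 2.08 for Cd79b (SE 0.71, adjusted p = 0.272) and 1.25 for Pax5 (SE 0.34, adjusted p = 0.0877). Of the 6 genes 0 passed, where 0.574% of all tested genes did, and 5 were under an unadjusted p of 0.05, as were 7.68% of all tested genes. The median change of the 6 genes was 1.71, against -0.08 for all genes. Without replicate 3 of the 24-month Esr1 glands, 5 of the 6 genes passed, all but Cr2, where 0.757% of all tested genes did, and the median change of the 6 was 2.59. The library left out is the low one of its group, and leaving out a high one instead makes the changes of Cd79a, Cd79b and Pax5 smaller.

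In uninduced CYP19A1 glands, Cd79a had 2.21, 6.57 and 3.34 TPM at 24 months, against 0.25, 1.07 and 0.67 TPM at 12 months. Ms4a1 had 1.48, 5.78 and 3.94 TPM at 24 months, against 0.14, 0.53 and 0.32 TPM at 12 months. Pax5 had 0.88, 1.52 and 1.15 TPM at 24 months, against 0.01, 0.38 and 0.25 TPM at 12 months. For 4 of the 6 genes, these 3 and Cd79b, every 24-month library was above every 12-month library, as it was for 9.31% of all tested genes. The changes were 1.54 for Cd79a (SE 0.62, limma adjusted p = 0.193), 1.72 for Ms4a1 (SE 0.64, adjusted p = 0.139) and 0.85 for Pax5 (SE 0.34, adjusted p = 0.192). Of the 6 genes 0 passed, where 4.24% of all tested genes did, and 4 were under an unadjusted p of 0.05, as were 14.7% of all tested genes. The median change of the 6 was 1.32, against 0.22 for all genes. The 12-month CYP19A1 group includes the library with 67.2% ribosomal RNA, and its other libraries had 0.122% and 22.2%, while the 24-month libraries had 0.0720%, 0.206% and 15.6%. Cr2 overlapped between the ages, at 0.57, 0.51 and 0.63 TPM at 24 months, against 0.44, 1.11 and 0.27 TPM at 12 months, with a change of 0.00 (95% interval -0.44 to 0.44).

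The age effects of the models did not differ detectably. The age change of the Esr1 glands minus that of the CYP19A1 glands was 0.33 for Cd79a (95% interval -1.44 to 2.10) and -0.08 for Ms4a1 (95% interval -1.90 to 1.74). In limma 0 of the 6 genes passed for this difference, against 0.0396% of all tested genes, and 0 were under an unadjusted p of 0.05. The median difference of the 6 genes was 0.32, against -0.32 for all genes. It was 1.09 without replicate 3 of the uninduced 24-month Esr1 glands and -0.11 without replicate 1 of them. These intervals are wide and leave room for differences as large as the age changes themselves.

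A comparison of 24 with 12 months averaged over the models was added after seeing the data, and in it 5 of the 6 genes passed upward, where 4.68% of all tested genes passed in either direction. Cd79b was higher at 24 months by 1.99 (SE 0.50, limma adjusted p = 0.0147), Cd79a by 1.70 (SE 0.44, adjusted p = 0.0162) and Ms4a1 by 1.68 (SE 0.45, adjusted p = 0.0209). Cd22 was higher by 1.44 (SE 0.41, adjusted p = 0.0324) and Pax5 by 1.05 (SE 0.24, adjusted p = 0.00769). On this scale, in which a pseudocount of 1 shrinks the change of scarce genes, these are 3.98-fold for Cd79b, 3.25-fold for Cd79a, 3.21-fold for Ms4a1, 2.71-fold for Cd22 and 2.07-fold for Pax5. Cr2 had a change of 0.15 (95% interval -0.16 to 0.46, adjusted p = 0.726), and Fcer2a, in the fit without the filter, 0.31 (SE 0.13, adjusted p = 0.175). The median change of the 6 genes was 1.56, against 0.07 for all genes.

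This count rests on how the spread was estimated and on single libraries. With a spread estimated from the 4 compared groups alone, 0 of the 6 genes passed (limma adjusted p = 0.0535 for Cd79a and 0.0824 for Pax5), where 1.9% of all tested genes did. The count was 1, namely Pax5, without replicate 1 of the 24-month Esr1 glands (3.64% of all tested genes) and also without replicate 2 of them (1.85%). It was 2 without replicate 2 of the 12-month Esr1 glands (1.97%), 2 without replicate 2 of the 24-month CYP19A1 glands (4.08%) and 3 without replicate 3 of these CYP19A1 glands (3.28%). Without the library of 67.2% ribosomal RNA it was 4, where 9.59% of all tested genes passed. Each gene that passed was higher at 24 months in all of these alternatives. Names of the 24- and 30-month libraries follow another pattern than those of the 12- and 18-month ones, so that age and any batch along that line cannot be told apart.

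Beside the 7 genes, 10 of 17 tested genes of the other B lineage list rose at 24 months in the averaged comparison, with a median change of 0.98. They include Fcmr, the IgM Fc receptor, at 1.33 (SE 0.34, limma adjusted p = 0.0148) and Bank1 at 1.32 (SE 0.37, adjusted p = 0.0270). Of 20 genes of B cell receptor signalling 1 rose, with a median change of 0.38 for the list. Of 8 antibody constant region genes 2 rose, Ighg2c by 1.88 (SE 0.48, adjusted p = 0.0162) and Ighm, the heavy chain of IgM, by 1.73 (SE 0.49, adjusted p = 0.0309). The list did not move as one: in Esr1 glands alone 5 of the 8 were higher at 24 months and 3 lower, with changes between -2.81 and 2.19. In CYP19A1 glands alone all 8 were higher, by 0.34 to 2.09. Of 8 plasma cell genes Mzb1, a chaperone of antibody-making cells that some B cells also make, rose by 1.12 (SE 0.33, adjusted p = 0.0413). Jchain, the joining chain of secreted IgM and IgA, had a change of 0.11 (SE 0.45, adjusted p = 0.958).

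Markers of other tissues in the same comparison were as follows. Of 18 tested T cell genes 0 passed in limma and 2 were under an unadjusted p of 0.05, with a median change of -0.01, and the summed list ran between 27.3 and 43.6 TPM at 24 months and between 6.43 and 54.0 TPM at 12 months. Of 5 tested genes of lymph node stroma Ccl19, a chemokine of the T cell zone, rose by 1.19 (SE 0.25, limma adjusted p = 0.00519). Cxcl13 had a change of 1.05 (SE 0.56, adjusted p = 0.366). Within each model 3 of the 5 tested stroma genes were higher at 24 months and 2 were lower. The lowest change was -1.14 in Esr1 glands and -1.37 in CYP19A1 glands. Madcam1 was among the lower ones in Esr1 glands, with 0.07, 0.44 and 1.07 TPM at 24 months, against 1.41, 3.65 and 2.05 TPM at 12 months. Skeletal muscle moved with age as well: 5 of 5 genes rose, with a median change of 2.59. Within the models, the median was 1.15 in Esr1 glands, where all 5 were higher and 0 passed. It was 4.07 in CYP19A1 glands, where 5 of 5 passed. The summed muscle genes ran between 6301 and 26209.6 TPM at 24 months and between 429.5 and 12431 TPM at 12 months, and no muscle marker was at 0 in a whole group. Across all libraries Cd79a had r = 0.39 and rho = 0.43 with the muscle genes (permutation p = 0.00683 and 0.00265, adjusted p = 0.012684 and 0.004921, 0.36 without the 2 farthest) and r = 0.08 within groups. The part of muscle, and of tissue taken with the gland, in the age change was not tested. Of 6 macrophage, 5 epithelial and 5 adipocyte markers 0 passed in limma, and at an unadjusted p under 0.05 there were 0, 0 and 1. Of the germinal centre list 2 genes could be tested, and 0 passed or were under an unadjusted p of 0.05.

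At 18 months most B cell genes had higher levels than at 12 months without induction, and none passed. In uninduced Esr1 glands, Cd79a had 1.12, 1.12 and 0.35 TPM at 18 months, against 0.41, 0.48 and 0.98 TPM at 12 months, and the groups overlapped. Pax5 alone of the 6 did not overlap, with 0.32, 0.43 and 0.37 TPM at 18 months against 0.05, 0.24 and 0.23 TPM at 12 months, as did, upward, 1.53% of all tested genes. In limma 0 of the 6 genes passed and 0 were under an unadjusted p of 0.05, against 0% passing among all tested genes, with a median change of 0.23 against 0.01 for all genes. In uninduced CYP19A1 glands, Cd79a had 0.64, 1.61 and 6.07 TPM at 18 months, against 0.25, 1.07 and 0.67 TPM at 12 months. Replicates 2 and 3 of the 18-month glands were above the 12-month range and replicate 1 lay within it. Again 0 of the 6 genes passed in limma, against 0.0099% of all tested genes, and 0 were under an unadjusted p of 0.05. Their median change was 0.89, against 0.18 for all genes, and the change of Cd79a was 0.94 (95% interval -0.31 to 2.19).

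**Figure D4:**
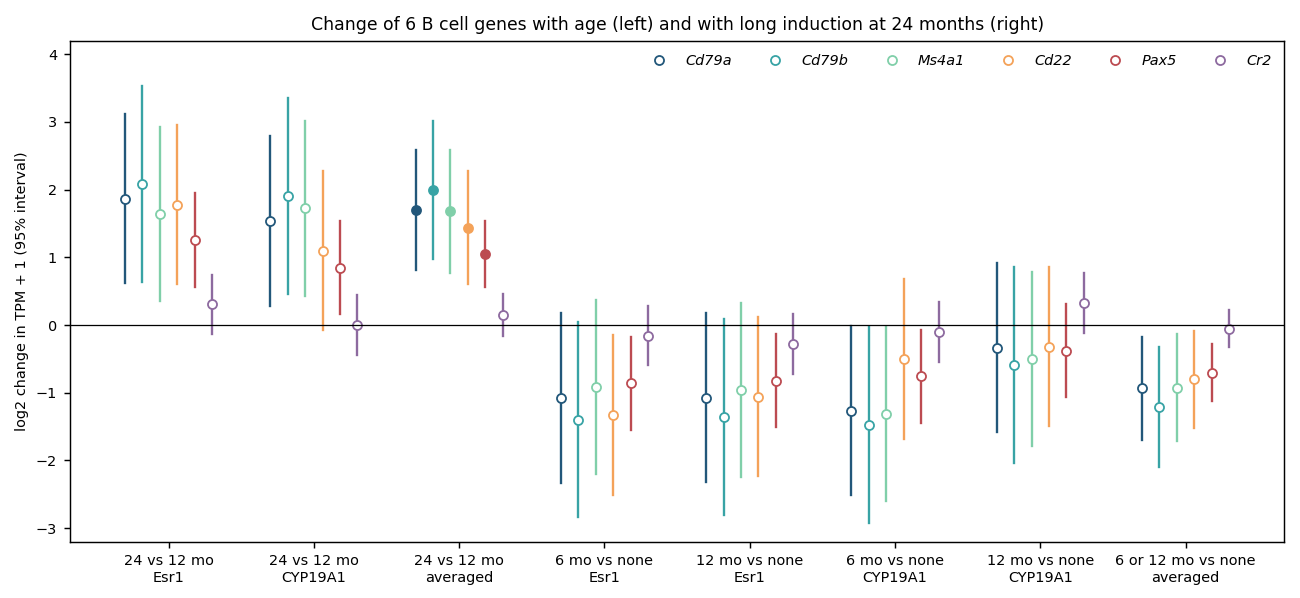
Log2 change in TPM + 1 of the 6 tested B cell genes with age in uninduced glands (left) and with 6 or 12 months of induction at 24 months (right), with 95% intervals; filled points passed an adjusted p of 0.05. Filled points are found in the age comparison averaged over the models, which was added after seeing the data, and changes under long induction lie mostly below 0 with none filled.

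Whether 1 week of the transgene alters B cell transcripts was asked at 12 and 18 months, and no B cell gene passed in any of the 4 comparisons. At 12 months, Cd79a had 1.25, 0.68 and 0.97 TPM in induced Esr1 glands, against 0.41, 0.48 and 0.98 TPM in uninduced ones. Cd22 had 1.61, 2.05 and 1.48 TPM in induced Esr1 glands, against 0.56, 0.55 and 0.96 TPM in uninduced ones, so that its groups did not overlap, which held for 1 of the 6 genes and, upward, for 10.1% of all tested genes, with a change of 0.69 (SE 0.58, limma adjusted p = 0.754). At 12 months in Esr1 glands 0 of the 6 genes passed in limma, against 0.0099% of all tested genes, with a median change of 0.17 against 0.22 for all genes, and 0.06 with median-of-ratios scaling, where 3 of the 6 were higher. In CYP19A1 glands of 12 months, Cd79a had 0.36, 0.18 and 0.55 TPM after induction, against 0.25, 1.07 and 0.67 TPM without it, and the ranges overlapped. There 0 of the 6 genes passed, against 0% of all tested genes in limma. Their median change was -0.19 while that of all genes was -0.32. Ribosomal RNA took 43.7%, 49.8% and 36.7% of TPM in the induced libraries, against 67.2%, 0.122% and 22.2% in the uninduced ones. The median change of the 6 genes was -0.04 with median-of-ratios scaling and -0.05 with protein-coding scaling, with 2 of the 6 higher.

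At 18 months, Cd79a had 2.79, 1.40 and 0.70 TPM in induced Esr1 glands, against 1.12, 1.12 and 0.35 TPM in uninduced ones, and the ranges overlapped. Again 0 of the 6 genes passed in limma, against 0% of all tested genes, with a median change of 0.40 against 0.14 for all genes. In CYP19A1 glands, Cd79a had 1.02, 1.80 and 10.5 TPM after induction, against 0.64, 1.61 and 6.07 TPM without it. Each group had its high library in replicate 3. There, too, 0 of the 6 genes passed in limma, against 0% of all tested genes, with a median change of 0.33 against 0.09 for all genes, which became -0.38 without replicate 3 of the induced glands. In all 4 of these comparisons 0 of the 6 genes were under an unadjusted p of 0.05.

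Long induction was tested at 24 months, where the uninduced libraries are those of the age comparisons, so the results share them. Most B cell genes had lower values after 6 or 12 months of either transgene, and none passed. In 24-month Esr1 glands, Cd79a had 10.7, 8.57 and 0.78 TPM without induction, 4.15, 1.65 and 0.56 TPM after 6 months and 3.23, 1.33 and 1.17 TPM after 12 months. Every induced library lay below both high uninduced libraries, and the low uninduced library lay inside or below the induced ranges. In 24-month CYP19A1 glands, Cd79a had 2.21, 6.57 and 3.34 TPM without induction, 0.38, 1.58 and 1.14 TPM after 6 months and 3.10, 5.86 and 0.88 TPM after 12 months. The 6-month libraries were all below the uninduced ones, and the 12-month libraries overlapped them. Pax5 had 0.38, 0.21 and 0.26 TPM after 6 months in CYP19A1 glands, against 0.88, 1.52 and 1.15 TPM without induction, and its groups did not overlap either. With Cd79b and Ms4a1, this held for 4 of the 6 genes and, downward, for 2.11% of all tested genes. After 12 months in CYP19A1 glands Cr2 did not overlap upward, with 0.96, 1.26 and 0.72 TPM against 0.57, 0.51 and 0.63 TPM without induction, as did 6.78% of all tested genes.

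In limma 0 of the 6 genes passed after 6 months in Esr1 glands, against 0% of all tested genes, and 2 were under an unadjusted p of 0.05 (1.16% of all tested genes), with a median change of -0.998. After 12 months in Esr1 glands 0 of 6 passed, against 0.00495% of all tested genes, and 1 was under an unadjusted p of 0.05 (1.38%), with a median change of -1.01. After 6 months in CYP19A1 glands 0 of 6 passed in limma, against 0% of all tested genes, and 4 were under an unadjusted p of 0.05 (1.29%), with a median change of -1.01. After 12 months in CYP19A1 glands 0 of 6 passed, against 0.0198% of all tested genes, and 0 were under an unadjusted p of 0.05, with a median change of -0.35. The medians of all genes lay between -0.01 and 0.12 in these comparisons. Without replicate 3 of the uninduced 24-month Esr1 glands, the median changes in Esr1 glands were -1.87 after 6 months and -1.88 after 12 months. That is the low library of its group, at a B cell sum of 3.51 TPM against 56.7 and 42.1 TPM. Leaving out a high library instead lowers the uninduced mean of Cd79a, so its decrease is smaller then.

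Averaged over models and durations, long-induced glands differed from uninduced ones by -1.21 for Cd79b (SE 0.44), -0.94 for Cd79a (SE 0.38), -0.92 for Ms4a1 (SE 0.39), -0.80 for Cd22 (SE 0.36) and -0.70 for Pax5 (SE 0.21), with a limma adjusted p of 1 for each. Cr2 had a difference of -0.05 (95% interval -0.32 to 0.22). Here 0 of 6 genes passed in limma, against 0% of all tested genes, and 5 were under an unadjusted p of 0.05, as were 239 of the 20209 tested genes. The median change of the 6 genes was -0.86, against 0.05 for all genes. Of 17 other B lineage genes 0 passed, all 17 had lower values in induced glands, and 12 were under an unadjusted p of 0.05, with a median change of -0.65. Of 18 T cell genes 0 passed and 0 were under an unadjusted p of 0.05, with a median change of -0.09. Without replicate 3 of the uninduced 24-month Esr1 glands, Pax5 passed (change -0.997, limma adjusted p = 0.0275), where 0.0346% of all tested genes did. The library left out is the low one of its group, and leaving out a high one instead makes the decrease of Pax5 smaller.

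Glands of 30 months after 18 months of induction were set against those of 24 months after 12 months, a comparison in which age and length of induction change together. In Esr1 glands, Cd79a had 3.45, 2.04 and 1.06 TPM at 30 months, against 3.23, 1.33 and 1.17 TPM at 24 months. Pax5 had 0.99, 0.97 and 1.11 TPM at 30 months, against 0.97, 0.41 and 0.42 TPM at 24 months, a narrow range just touching the highest younger library. Limma passed 0 of 6 genes, against 0.139% of all tested genes, and 0 were under an unadjusted p of 0.05, with a median change of 0.18 against -0.36 for all genes. Replicate 3 of these 30-month glands had 50.3% ribosomal RNA, while the other 5 libraries had at most 4.54%. The median change was 0.51 with median-of-ratios scaling and 0.47 with protein-coding scaling, with 6 of 6 genes higher in place of 4. In CYP19A1 glands, Cd79a had 1.01, 9.15 and 1.43 TPM at 30 months, against 3.10, 5.86 and 0.88 TPM at 24 months, and the ranges overlapped. Limma passed 0 of 6 genes here, against 0% of all tested genes, and 0 were under an unadjusted p of 0.05. The median change was 0.20, against -0.18 for all genes, and it was 0.36 with median-of-ratios scaling, 0.34 with protein-coding scaling and -0.50 without replicate 2 of the 30-month glands.

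Between the models, uninduced Esr1 glands were set against uninduced CYP19A1 glands, averaged over 12, 18 and 24 months. The difference was -0.16 for Cd79a (95% interval -0.88 to 0.56), -0.28 for Ms4a1 (95% interval -1.02 to 0.46), 0.15 for Cd22 (95% interval -0.53 to 0.83) and 0.03 for Pax5 (95% interval -0.37 to 0.42). In limma 0 of the 6 genes passed, against 2.95% of all tested genes, and 0 were under an unadjusted p of 0.05. Their median difference was -0.06, against 0.10 for all genes, and -0.18 with protein-coding scaling, against -0.12. Of the antibody constant regions, Ighg1 was lower in Esr1 glands, with a log2 difference of -1.90 (limma adjusted p = 0.0203), and of the stroma genes Ccl21a, a chemokine of lymphatic vessels and the T cell zone, was higher by 1.58 (adjusted p = 0.00102) and Glycam1 by 4.84 (adjusted p = 0.0149).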

How the data were processed

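The deposited table holds TPM made by the authors for 48 libraries. Per the labels' protocols, total RNA was depleted of ribosomal RNA and made into stranded libraries, sequenced at 75 bp from 1 end to a stated minimum of 50 M reads. STAR 2.7.9a and RSEM 1.3.1, with mm10 as the build, and for read quality FastQC 0.11.9 and Trim Galore 0.6.5 are named in the submitters' processing notes. The annotation release is not given in the sources used here, and positions come from GENCODE M21, whose versioned identifiers match 55094 of the 55487 genes. TPM keep no depth, so it is unknown beyond that minimum and no counting interval is given.

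From the TPM, log2(TPM + 1) was fitted with limma 3.58.1 in R 4.3.3, with a mean for each of the 16 groups over all 48 libraries, an intensity trend and two-sided tests, for genes that reached 1 TPM in 3 or more libraries, adjusted by Benjamini-Hochberg within each comparison. The script was tested on simulated data. The 7 genes, the 12 lists beside them and the rules were chosen with earlier results of these data known. All 7 genes are named. From each other list up to 3 genes that passed with the largest change are named, or all where 5 or fewer passed, and otherwise up to 2 abundant ones; some genes that these rules would name are not reported here. Markers named outside this rule (Cd3e, Cxcl13, Chst4, Fut7, Madcam1, Rag1, Rag2, Jchain, Igkc, Glycam1) were chosen after their values were seen. Alternatives were another pseudocount, no filter, other scalings, a replicate block, the compared groups alone and leaving out each library. Correlations used 100000 permutations (numpy 2.4.6, Python 3.11.15).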

Additional observations from a re-analysis of the deposited data

How the results depend on the processing

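With a pseudocount of 0.1 TPM or no filter, and with TPM rescaled to protein-coding genes, the number of the 6 genes that passed did not move in any of the 18 comparisons. With TPM rescaled by median-of-ratios factors, 1 gene, Pax5, passed at 24 against 12 months in uninduced Esr1 glands, where 0 did otherwise, while the share of all tested genes that passed was 1.8%, against 0.574% on the deposited scale. The pseudocount of 0.1 TPM widened the median change at 24 against 12 months to 2.56 in Esr1 glands, 2.36 in CYP19A1 glands and 2.49 averaged over the models, and that after 6 months in CYP19A1 glands to -1.82. Rescaling by median-of-ratios factors moved the median change of all genes at 24 against 12 months in CYP19A1 glands to 0.00, where it was 0.22 on the deposited scale, and that of the 6 genes to 1.22. Of the 20209 tested genes 857 passed there on the deposited scale, 65 with median-of-ratios factors and 76 with protein-coding scaling. The 4.24% passing in that comparison thus depends strongly on the scaling. Cr2 changed sign in that comparison, where its value was near 0: it was -0.17 with median-of-ratios factors, -0.22 with protein-coding scaling and -0.15 to 0.21 with single libraries left out. Under long induction averaged over models and durations, Cr2 ran between -0.18 and 0.0901 with single libraries left out.

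Leaving out single libraries gave 0 to 5 genes at 24 against 12 months in Esr1 glands, 0 to 1 under long induction averaged over models and durations, and 1 to 5 in the age comparison averaged over the models, in which the compared groups alone gave 0. Replicate numbers are not stated to mark a shared litter, batch or day, and same-numbered libraries deviated together (every correlation over 0.1) in 1 of 14 comparisons of 2 groups. A replicate block changed no count: 5 genes passed in the averaged age comparison and 0 in each of the other comparisons. With 3 libraries a group and B cell transcripts near 1 TPM, the 95% intervals of changes within a model span more than 2 log2 units for 4 of the 6 genes.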
